A study of Mus musculus with 4 samples.

Results

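Ferroptosis is an iron-dependent cell death in which polyunsaturated fatty acids held in membrane phospholipids are oxidised. The genes described here belong to lipid synthesis and oxidation steps linked to ferroptosis. They were the rows of an RNA sequencing study's gene table whose symbol is Acsl1, Acsl3, Acsl4, Acsl5, Lpcat3, Agps, Far1, Tmem189, Por or Cyb5r1. They were 10 of 54532 genes in the table, and all 10 were among the 13922 genes abundant enough to test. Their products fall into 4 roles, namely 4 synthetases that activate long-chain fatty acids, 1 acyltransferase, 3 enzymes of ether lipid synthesis and 2 oxidoreductases.

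Polyadenylated RNA was measured in LL2 cells, a mouse tumour line that goes back to a Lewis lung carcinoma. One group of 2 libraries came from cells given lactic acid at 20 mM for 24 h, and the other group of 2 libraries came from cells given an equal amount of PBS (phosphate-buffered saline) over the same 24 h. The labels call the libraries of a group biological replicates without saying whether they were separate cultures, so the p-values measure the spread between these libraries. All groups shared 1 cell line, and the labels give no pH of the medium. The depth was 15501006 and 16331584 counts in the lactic acid libraries and 16164237 and 17409990 counts in the PBS libraries. Of 9 epithelial lung markers only Krt8 and Krt18 reached 1 CPM (counts scaled to the library size) in every library, while Nkx2-1 was at 0 counts throughout and Epcam had 1 count in 1 lactic acid library. The epithelial markers summed to 153 CPM in both lactic acid libraries, against 214 to 221 CPM in PBS libraries, through Krt8 (53.3 CPM with lactic acid against 118 CPM in PBS libraries, a log2 fold change of -1.14, edgeR adjusted p = 1.93e-27), while Krt18 was at 99.1 CPM in lactic acid libraries and at 99.3 CPM in PBS libraries. The 6 mesenchymal markers summed to 5364 to 5411 CPM with lactic acid and 5456 to 5468 CPM with PBS, but single markers went both ways. Vim (3345 CPM with lactic acid against 4053 CPM with PBS) and S100a4 (24.4 CPM with lactic acid against 67.1 CPM with PBS) were lower, and Fn1 was higher (1999 CPM with lactic acid against 1319 CPM with PBS). The summed level of 6 leukocyte markers was 6.74 to 7.85 CPM in lactic acid libraries, against 3.91 to 4.03 CPM in PBS libraries, carried by Cd68, with 4 of the 6 at 0 counts in all libraries. Adipocyte and endothelial markers each summed to less than 1 CPM in every library. Whether these differences had a part in the results below was not tested.

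As background, the ACSL enzymes couple free fatty acids to coenzyme A, which is the step that commits them to membrane lipids, storage or oxidation. ACSL4 favours arachidonic and adrenic acid, the chains that peroxidise most readily, and LPCAT3 inserts such chains into lysophospholipids. FAR1, AGPS and TMEM189 make ether phospholipids and plasmalogens, another class that can carry polyunsaturated chains. POR and CYB5R1 pass electrons from NADPH and NADH, and can thereby feed hydrogen peroxide and lipid oxidation.

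The messages of the acyltransferase Lpcat3 and of the synthetases Acsl5 and Acsl3 fell with lactic acid, to 0.626, 0.687 and 0.724 times their PBS level, while Acsl4, the synthetase most closely tied to ferroptosis, did not pass the test. Tmem189 was slightly lower and Cyb5r1 slightly higher, and Acsl1, Agps, Far1 and Por did not pass. Thus 1 of the 10 genes was higher and 4 were lower at an adjusted p below 0.05 (edgeR quasi-likelihood test, Benjamini-Hochberg over all genes tested). Over all genes tested, 24.7% were called higher and 24.3% lower, 49.0% in all, so 5 calls among 10 genes is close to the background share. The groups did not overlap for 8 of the 10 genes, against 72.3% of all genes tested. The median log2 fold change of the 10 genes was -0.0071 and that of all genes tested 0.0073. Values are relative to the other genes, and in bulk RNA fewer cells that express a gene and less RNA per cell cannot be told apart. With 2 against 2 libraries an exact permutation test of 1 gene by itself has a smallest two-sided p of 0.333, so the calls rest on the spread that the model shares between genes.

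**Figure D1:**
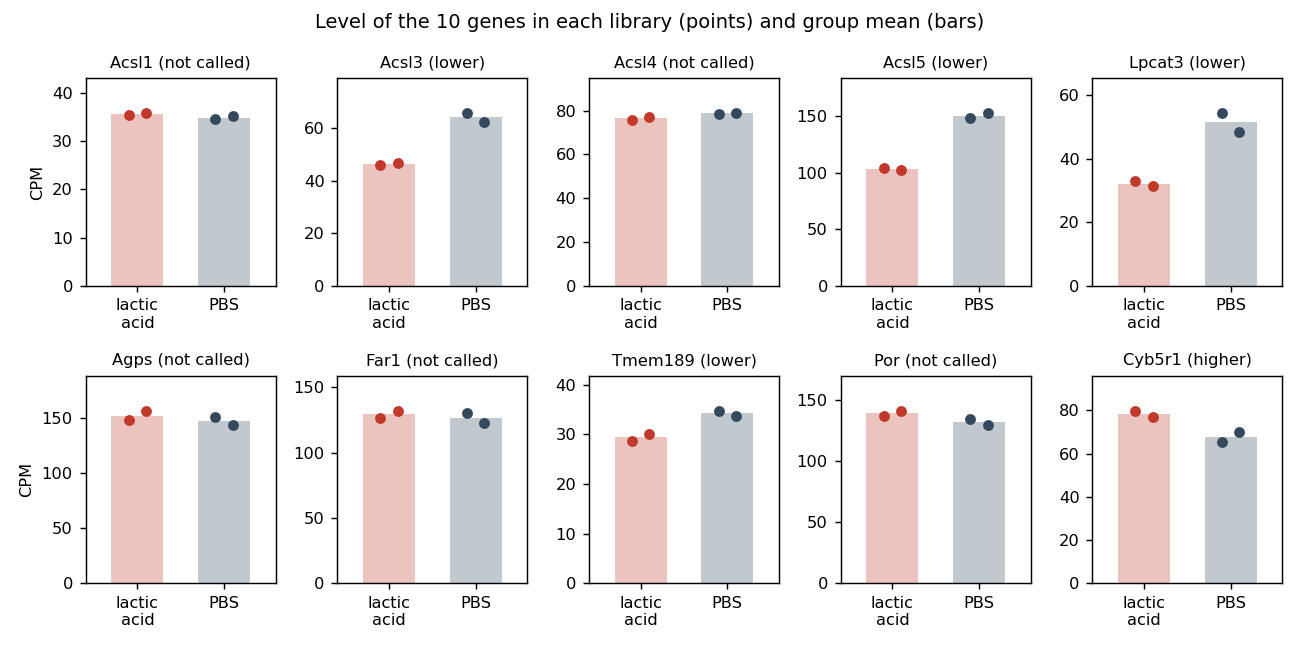
CPM of the 10 genes in the 2 lactic acid libraries (red points, left) and the 2 PBS libraries (dark points, right), with bars at the group means and axes from 0. Lpcat3, Acsl5 and Acsl3 are clearly lower with lactic acid, at 31.3 to 33.1, 102 to 104 and 46.1 to 46.6 CPM, while the points of Acsl4 lie between 75.7 and 78.9 CPM in all 4 libraries.

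The start regions of the 3 most lowered genes and of Acsl4 are shown because the results turn on these genes. Each is the RefSeq promoter window on GRCm38.p6, 250 bases before to 50 after the annotated start, written 5′ to 3′ on the strand of the gene. That start can differ from the start of the gene as counted. The Acsl5 window begins at 55253119, inside the gene, which starts at 55251938. The Por window, described below, begins at 135688895, inside a gene that starts at 135670033. The windows thus compare unlike kinds of start. Capitals mark CCAAT boxes, searched as CCAAT on both strands (so also as its reverse complement). Lpcat3 is at chr6:124662854-124663153 on the plus strand, Acsl5 at chr19:55253119-55253418 on the plus strand, Acsl3 at chr1:78657575-78657874 on the plus strand and Acsl4 at chrX:142390486-142390785 on the minus strand.
Lpcat3: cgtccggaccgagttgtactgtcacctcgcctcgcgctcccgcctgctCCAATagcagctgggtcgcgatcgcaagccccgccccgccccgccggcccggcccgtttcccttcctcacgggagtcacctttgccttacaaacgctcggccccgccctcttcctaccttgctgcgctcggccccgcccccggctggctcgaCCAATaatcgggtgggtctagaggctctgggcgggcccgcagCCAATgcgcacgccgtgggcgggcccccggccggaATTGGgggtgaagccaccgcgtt
Acsl5: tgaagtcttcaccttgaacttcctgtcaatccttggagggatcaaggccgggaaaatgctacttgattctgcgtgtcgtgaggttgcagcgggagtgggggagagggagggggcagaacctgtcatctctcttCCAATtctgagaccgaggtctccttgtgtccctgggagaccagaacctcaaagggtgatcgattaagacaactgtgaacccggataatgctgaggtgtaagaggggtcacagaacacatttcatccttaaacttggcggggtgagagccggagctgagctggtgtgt
Acsl3: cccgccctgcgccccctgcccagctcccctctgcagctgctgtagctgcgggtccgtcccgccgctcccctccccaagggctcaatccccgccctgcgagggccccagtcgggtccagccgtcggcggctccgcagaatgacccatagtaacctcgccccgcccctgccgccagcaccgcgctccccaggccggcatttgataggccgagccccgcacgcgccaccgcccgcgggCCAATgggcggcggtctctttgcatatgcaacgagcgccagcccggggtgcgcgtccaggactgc
Acsl4: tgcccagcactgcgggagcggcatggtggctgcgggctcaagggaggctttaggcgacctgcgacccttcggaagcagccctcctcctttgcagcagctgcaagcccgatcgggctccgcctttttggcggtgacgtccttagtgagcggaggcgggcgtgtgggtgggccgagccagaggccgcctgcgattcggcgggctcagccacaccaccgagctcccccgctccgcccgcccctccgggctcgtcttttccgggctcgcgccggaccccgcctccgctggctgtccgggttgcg
The Lpcat3 window held 4 CCAAT boxes, and at least 4 were found in 1.06% of the 32851 promoter windows of 300 bases in the table. The Acsl5 and Acsl3 windows held 1 each, where 37.4% of all windows held at least 1, and the letters are not in the Acsl4 window. Among the other genes that did not pass, the Far1 window held 3 CCAAT boxes, the Agps window 1 and the second of the 2 Acsl1 windows 2. The first Acsl1 window and the Por window held 0, as did the window of Cyb5r1, which was called higher. Windows with at least 1 box thus stood among lowered genes and among genes not called. The Acsl4 and Acsl3 windows were rich in G and C (71.7% and 74.0% of bases), as was that of Lpcat3 (71.0%), while the Acsl5 window had 53.0%. Of the 10 genes 9 had a window in the table, and Tmem189, which was called lower, had none. None of the 4 windows shown held the letters searched for the NRF2 element (TGACNNNGC, in 12.4% of all windows), the ATF4 element (TGATGNAA, 3.97%), the SREBP element (TCACNCCAC, 1.24%) or the E-box (CACGTG, 7.15%), each on both strands. The second Acsl1 window held 1 SREBP element. These matches describe letters and say nothing of a factor at work.

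Among the 4 synthetases, Acsl5, whose product sits on mitochondria and the endoplasmic reticulum, was the most abundant per length, although Slc27a1 of the other synthetases below was higher (27.4 FPKM with lactic acid and 41.3 FPKM with PBS, against 21.1 and 30.9 FPKM of Acsl5; FPKM are read counts scaled by gene length and library size). It measured 104 and 102 CPM in the lactic acid libraries, against 148 and 153 CPM in the PBS libraries. Both lactic acid libraries lay far below both PBS libraries, at 0.687 times the PBS level. Its log2 fold change was -0.54 (SE 0.04, 95% interval -0.62 to -0.46, edgeR adjusted p = 4.48e-17). Acsl5 lies on chromosome 19 at 55251938 to 55297720, plus strand of GRCm38 (ENSMUSG00000024981).

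Acsl3, an enzyme of lipid droplet formation that activates monounsaturated chains, had 46.1 and 46.6 CPM with lactic acid, against 65.8 and 62.4 CPM with PBS. The groups were well apart, and the level with lactic acid was 0.724 times that with PBS. The log2 fold change was -0.47 (SE 0.06, 95% interval -0.59 to -0.34, edgeR adjusted p = 6.50e-09). The gene is on chromosome 1 at 78657825 to 78707743, plus strand (ENSMUSG00000032883).

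Acsl4 had 75.7 and 77.1 CPM in lactic acid libraries, against 78.5 and 78.9 CPM in PBS libraries. Both lactic acid libraries were below both PBS libraries, by a small margin. Its log2 fold change of -0.04 had a 95% interval of -0.15 to 0.06, an interval that does not reach the change of Acsl3 or of Acsl5 (edgeR adjusted p = 0.537). Acsl1, the main synthetase of adipose tissue and heart, had 35.3 and 35.8 CPM in lactic acid libraries, against 34.5 and 35.2 CPM in PBS libraries. The groups were separated by a very small gap, and the log2 fold change was 0.03 (95% interval -0.13 to 0.18, edgeR adjusted p = 0.795). Acsl4 lies on chromosome X at 142317993 to 142390535, minus strand (ENSMUSG00000031278), and Acsl1 on chromosome 8 at 46471037 to 46536051, plus strand (ENSMUSG00000018796).

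The make-up of the messages of these 4 synthetases differed between the groups. The FPKM that the authors deposited were used to set levels of different genes side by side. Their gene length is that of all annotated exons together (10483 bases for Acsl1 and 4864 for Acsl5), not that of the transcripts present. Orders, ratios and shares between genes are therefore approximate. The 4 genes summed to 49.0 and 49.0 FPKM with lactic acid, against 63.3 and 63.6 FPKM with PBS. Acsl4 made up 28.3% and 28.9% of this sum with lactic acid and 22.9% and 22.9% with PBS. Acsl5 made up 43.4% and 42.6% with lactic acid and 48.0% and 49.3% with PBS, and was the largest of the 4 in each library. The ratio of the Acsl4 level to the Acsl3 level per length was 1.32 and 1.33 with lactic acid, against 0.962 and 1.02 with PBS, so the order of the pair differed in 1 of the PBS libraries. Acsl1 took 6.82% and 6.91% of the sum with lactic acid and 5.20% and 5.28% with PBS. These shares are parts of 1 sum, so a share can be larger with no higher level of its own gene, and no test was made of them. The sum leaves out Acsl6 (6.98 FPKM with lactic acid and 4.33 FPKM with PBS), and each share would be smaller with it included.

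**Figure D2:**
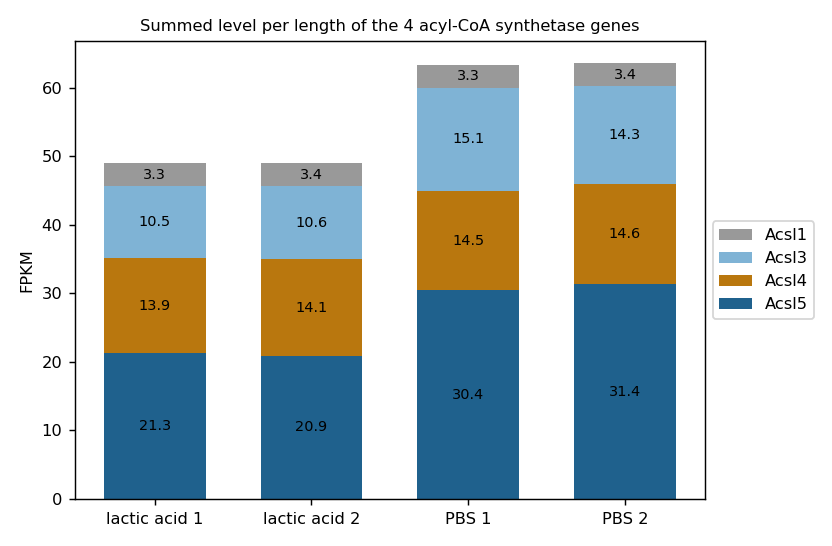
Deposited FPKM of Acsl1, Acsl3, Acsl4 and Acsl5 stacked for each of the 4 libraries, lactic acid left and PBS right, with each gene's FPKM in its block. The columns are lower with lactic acid (49.0 against 63.3 and 63.6 FPKM), the Acsl5 and Acsl3 blocks are shorter, and the Acsl4 blocks are of similar height.

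Lpcat3 had the steepest change of the 10 genes. It measured 33.1 and 31.3 CPM in the lactic acid libraries, against 54.4 and 48.6 CPM in the PBS libraries. The highest lactic acid library lay well under the lowest PBS library, and the PBS libraries differed more from each other than the lactic acid libraries did. The level with lactic acid was 0.626 times that with PBS (log2 fold change -0.68, SE 0.07, 95% interval -0.82 to -0.53, edgeR adjusted p = 1.43e-11). Of all genes tested, 4.98% had a lower log2 fold change than Lpcat3, and the same share was 7.71% for Acsl5 and 10.1% for Acsl3. Lpcat3 lies on chromosome 6 at 124663027 to 124704418, plus strand (ENSMUSG00000004270).

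Of the ether lipid enzymes described here, Agps and Far1 did not pass the test, and Tmem189, given below, was slightly lower. Agps, the peroxisomal synthase that forms the ether bond, had 148 and 156 CPM with lactic acid, against 151 and 143 CPM with PBS. Its groups overlapped, and the log2 fold change was 0.05 (95% interval -0.03 to 0.13, edgeR adjusted p = 0.341). Far1, the reductase that supplies the fatty alcohol, had 127 and 132 CPM with lactic acid, against 130.5 and 122 CPM with PBS. These groups overlapped as well (log2 fold change 0.03, 95% interval -0.05 to 0.12, edgeR adjusted p = 0.536). Agps is on chromosome 2 at 75832177 to 75931350 and Far1 on chromosome 7 at 113513834 to 113571511, both on the plus strand (ENSMUSG00000042410 and ENSMUSG00000030759).

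Tmem189, the desaturase that turns an ether lipid into a plasmalogen, was at 28.7 and 30.2 CPM with lactic acid, against 34.8 and 33.8 CPM with PBS. The groups did not overlap, and the log2 fold change was -0.22 (SE 0.08, 95% interval -0.38 to -0.06, edgeR adjusted p = 0.0207). This was the weakest call of the 5. It was lost without lactic acid replicate 1 (edgeR adjusted p = 0.142), without PBS replicate 1 (0.0962) and in the DESeq2 Wald test (0.141), in a range of 0.0170 to 0.142 over 14 alternatives. Tmem189 lies on chromosome 2 at 167642608 to 167689822, minus strand (ENSMUSG00000090213).

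Of the oxidoreductases, Cyb5r1, which carries electrons from NADH, was higher with lactic acid. It had 79.9 and 76.7 CPM with lactic acid, against 65.4 and 69.9 CPM with PBS. The groups were apart, with the level 1.16 times that with PBS (log2 fold change 0.21, SE 0.06, 95% interval 0.10 to 0.32, edgeR adjusted p = 0.00119). Por, which carries electrons from NADPH to cytochromes P450, had 137 and 141 CPM in lactic acid libraries, against 135 and 129.9 CPM in PBS libraries. Its groups did not overlap by a narrow gap, and the log2 fold change of 0.07 did not pass (95% interval -0.01 to 0.15, edgeR adjusted p = 0.141). Per length Por was the most abundant of the 10 genes, at 34.3 ± 0.810 FPKM with lactic acid and 32.9 ± 0.895 FPKM with PBS (SD, n = 2 each), and Acsl1 the least, at 3.36 ± 0.0346 and 3.33 ± 0.0468 FPKM. In the PBS libraries Lpcat3, Far1, Agps, Cyb5r1, Acsl3 and Acsl4 lay close together (means of 14.6 to 15.8 FPKM). In the lactic acid libraries Lpcat3 (9.77 ± 0.384 FPKM) and Acsl3 (10.6 ± 0.0863 FPKM) lay below Acsl4, Agps, Far1 and Cyb5r1, of which Cyb5r1 was the highest at 17.5 ± 0.489 FPKM. Por is on chromosome 5 at 135670033 to 135735326 and Cyb5r1 on chromosome 1 at 134405559 to 134411740, both on the plus strand (ENSMUSG00000005514 and ENSMUSG00000026456).

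**Figure D3:**
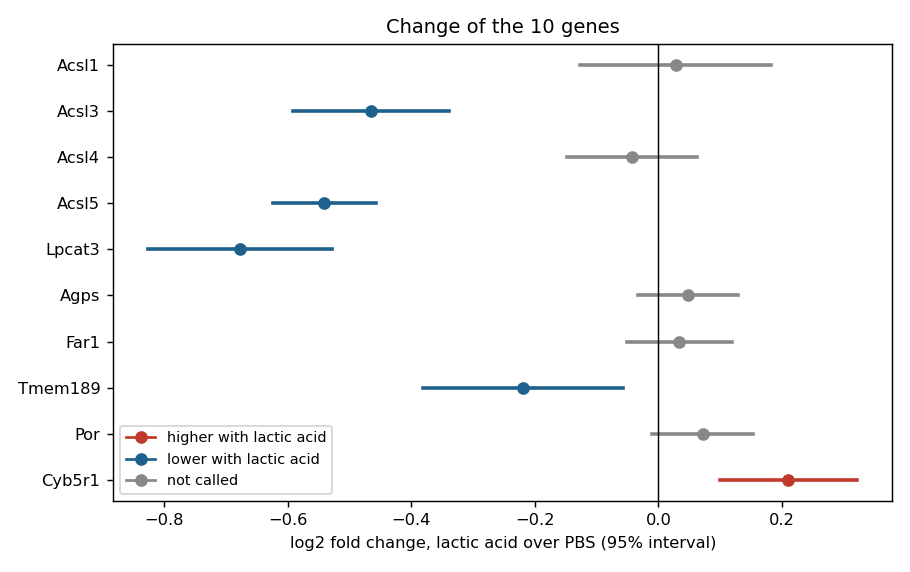
Log2 fold change of each of the 10 genes, lactic acid over PBS, with its 95% interval from the edgeR fit and colours for the call at an adjusted p below 0.05. The intervals of Lpcat3, Acsl5 and Acsl3 end at -0.53, -0.46 and -0.34, and that of Acsl4 spans 0.

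Each of the 4 lowered genes has exons that overlap those of another counted gene with at least 10% as many reads, and none of the other 6 genes has such a partner. Reads of the partner came to 261% of those of Lpcat3 (Emg1), 177% for Tmem189 (Cebpb), 45.6% for Acsl5 (Zdhhc6) and 39.9% for Acsl3 (Utp14b). Over all genes tested 17.1% have a partner at this limit, with 12.9% of the genes called higher, 15.3% of those called lower and 19.9% of those not called. Such partners were thus no more frequent among all genes called lower than among all genes tested. The library kit does not mark strand and the counting of shared bases is not stated, so reads from the overlap cannot be told apart. Lpcat3 overlaps Emg1, a ribosome assembly gene, over 334 bases (10.2% of its exonic length) at its 3′ end on the other strand. Emg1 had 1481 and 1602 counts with lactic acid, against 1938 and 2119 counts with PBS, and was lower by less than Lpcat3 (log2 fold change -0.36, SE 0.04, edgeR adjusted p = 2.73e-10). Acsl5 overlaps Zdhhc6, a palmitoyltransferase gene, over 404 bases (8.31%) on the other strand, and Zdhhc6 had a log2 fold change of -0.26 (SE 0.06, edgeR adjusted p = 3.04e-04). Acsl3 overlaps Utp14b, a gene of ribosome assembly, over 244 bases (5.60%) on the same strand near its start. Utp14b had 238 and 256 counts with lactic acid, against 436 and 509 counts with PBS (log2 fold change -0.90, SE 0.10, edgeR adjusted p = 1.86e-11). Tmem189 overlaps Cebpb, a transcription factor gene, over 312 bases (9.56%) at its 5′ end on the other strand. Cebpb went the other way, with a log2 fold change of 0.34 (SE 0.06, edgeR adjusted p = 9.00e-06). Tmem189 also shares 694 exonic bases (21.3%) with Gm20431, a gene annotated on the same strand that is listed at 0 counts in all 4 libraries. The part of these overlaps in the 4 changes was not tested.

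**Figure D4:**
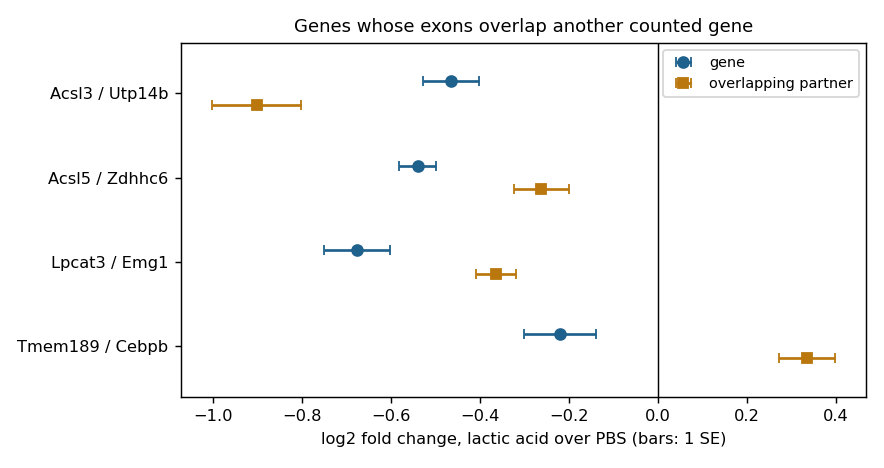
Log2 fold change (lactic acid over PBS, bars of 1 SE) of the 4 genes with an overlapping counted partner (blue circles) and of the partner (orange squares). Emg1 and Zdhhc6 were lowered less than Lpcat3 and Acsl5, Utp14b more than Acsl3, and Cebpb lies on the other side of 0 from Tmem189.

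Other genes of the same steps were taken from 7 lists of textbook genes. The lists were drawn up with earlier results of these data known, so their counts describe the lists only. Beside each count stand the 24.7% of all genes tested that were called higher and the 24.3% called lower. Of each list the 3 genes with the smallest p are named with values. Of 9 other acyl-CoA synthetases tested 3 were higher and 2 lower, with a median log2 fold change of 0.33. Acsl6, the synthetase that supplies docosahexaenoic acid in brain, rose to 69.8 ± 0.493 CPM with lactic acid, against 43.0 ± 2.25 CPM with PBS (log2 fold change 0.70, SE 0.06, edgeR adjusted p = 1.85e-14). Acsbg1, a bubblegum-family synthetase, stood at 10.4 ± 1.51 CPM in lactic acid libraries, against 4.87 ± 0.207 CPM in PBS libraries (log2 fold change 1.09). Slc27a1, a fatty acid transport protein with synthetase activity, fell to 161 ± 1.48 CPM with lactic acid, against 241 ± 1.93 CPM with PBS (log2 fold change -0.58). Adding Acsl6 to the sum of the 4 Acsl members gave 55.9 and 56.0 FPKM with lactic acid, against 67.5 and 68.1 FPKM with PBS, so the sum was lower with lactic acid also with Acsl6 in it.

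Of 15 lysophospholipid and glycerophosphate acyltransferases tested, 4 were higher and 4 lower, with a median log2 fold change of 0.05. Lpcat1, which handles saturated chains, was higher at 107 ± 0.817 CPM in lactic acid libraries, against 85.1 ± 1.26 CPM in PBS libraries (log2 fold change 0.34), whereas Agpat2 and Gpat4, which build phosphatidic acid and its precursor, were lower (-0.62 and -0.26). Their edgeR adjusted p-values were 8.88e-09, 2.20e-09 and 9.37e-08. Mboat7, which places arachidonic acid on phosphatidylinositol, was lower too, at 48.3 CPM in lactic acid libraries, against 63.2 CPM in PBS libraries (log2 fold change -0.39), and is named after its values were seen. Agpat2 overlaps Egfl7 on the other strand over 64 bases.

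Of 12 ether lipid and peroxisome genes tested, 4 were higher and 0 lower in edgeR, with 5 and 0 at an unadjusted p below 0.05 and 4 and 0 in DESeq2 and in limma-voom. Over all genes tested 24.7% were called higher and 24.3% lower in edgeR. The median log2 fold change of these 12 genes was 0.19, beside 0.0073 over all genes tested. Gnpat, which starts ether lipid synthesis just before Agps, rose to 136 ± 4.87 CPM with lactic acid, against 107 ± 4.80 CPM with PBS (log2 fold change 0.35, SE 0.04, edgeR adjusted p = 3.92e-10). Selenoi, an ethanolamine phosphotransferase that acts late in plasmalogen synthesis, rose by 0.39 and Pex5, the receptor that imports peroxisomal enzymes, by 0.31 on the log2 scale. Gnpat overlaps 2810004N23Rik over 88 bases, and that gene had a log2 fold change of -0.03.

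Lipoxygenases, which oxidise polyunsaturated chains enzymatically, had few or no reads. Alox15, Alox8 and Alox12e had 0 counts in all 4 libraries, which allows up to 0.175 to 0.191 CPM in a library (3 counts, counting error only), and Alox5, Alox12 and Alox12b had at most 3 counts in a library. Aloxe3 had 35 and 32 counts with lactic acid, against 14 and 33 counts with PBS, and did not pass (edgeR adjusted p = 0.228; 0.0446 without PBS replicate 2, in a range of 0.0446 to 0.865). Pebp1, a scaffold protein that binds lipoxygenases, had 335 ± 9.50 CPM in lactic acid libraries, against 295 ± 24.0 CPM in PBS libraries (log2 fold change 0.18, adjusted p = 0.00308 in edgeR). It was not called without PBS replicate 1 (0.0506), in DESeq2 (0.107) and on the deposited FPKM with both pseudocounts (0.0701 and 0.0728), in a range of 2.28e-08 to 0.107. Pebp1 also has near-identical copies that went the other way. Gm9824 had 314 and 199 counts with lactic acid, against 1052 and 610 counts with PBS. Gm10819 had 84 and 69 counts with lactic acid, against 209 and 190 counts with PBS. The part of reads shared with these copies in the higher Pebp1 level was not tested. Alox5ap, the partner of Alox5, had 10 and 14 counts with lactic acid, against 1 and 5 counts with PBS (edgeR adjusted p = 0.0215), and was not called without lactic acid replicate 1 (0.0633), without lactic acid replicate 2 (0.203), without PBS replicate 1 (0.264) or in DESeq2 (0.144), in a range of 0.0135 to 0.264.

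Of 10 electron carrier and P450 genes tested, 4 were higher and 3 lower, with a median log2 fold change of -0.02. Cyb5b, the cytochrome b5 of the outer mitochondrial membrane, fell to 270 ± 0.329 CPM with lactic acid, against 371 ± 4.14 CPM with PBS (log2 fold change -0.46, SE 0.03, edgeR adjusted p = 1.18e-18). Cyp51, a demethylase of cholesterol synthesis that takes electrons from Por, fell by 0.61 on the log2 scale. It overlaps Akap9 over 166 bases, and Akap9 had a log2 fold change of -0.0039. Cyp4f13, a P450 of the fatty acid hydroxylase family, rose to 18.2 ± 1.45 CPM with lactic acid, against 8.99 ± 0.830 CPM with PBS (log2 fold change 1.02). Cyb5r3, the abundant relative of Cyb5r1, was named after its values were seen and was also higher, at 311 CPM in lactic acid libraries, against 267 CPM in PBS libraries (log2 fold change 0.22). Cyb5r4, another relative named after its values were seen, was lower, at 58.9 CPM in lactic acid libraries, against 70.7 CPM in PBS libraries (log2 fold change -0.27, edgeR adjusted p = 1.11e-04).

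In the list of fatty acid uptake and release from phospholipids or stores, 9 of 10 tested were higher with lactic acid and 1 was lower. The shares over all genes tested were 24.7% and 24.3%. DESeq2 called 8 higher and 1 lower. The median log2 fold change of the list was 0.60, beside 0.0073 over all genes tested. Of the uptake genes in it, Cd36 and Fabp3 had too few counts to test. Fatty acid transport proteins stood in the list of other synthetases instead. Of these, Slc27a1 and Slc27a4 were lower (log2 fold changes of -0.58 and -0.43), and Slc27a3 and Slc27a6 did not pass. Pla2g4a, the cytosolic phospholipase that frees arachidonic acid from membranes, rose to 135 ± 1.69 CPM with lactic acid, against 71.1 ± 0.561 CPM with PBS (log2 fold change 0.92, SE 0.05, edgeR adjusted p = 1.70e-25). Pla2g6, a calcium-independent phospholipase, reached 41.1 ± 0.105 CPM in lactic acid libraries, against 26.3 ± 0.972 CPM in PBS libraries (log2 fold change 0.64). Pnpla8, a related phospholipase of mitochondria and peroxisomes, rose by 0.57 on the log2 scale. The lower gene of the uptake and release list was Pnpla6, a lysophospholipase, with a log2 fold change of -0.36. Pnpla6 is named after its value was seen.

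**Figure D5:**
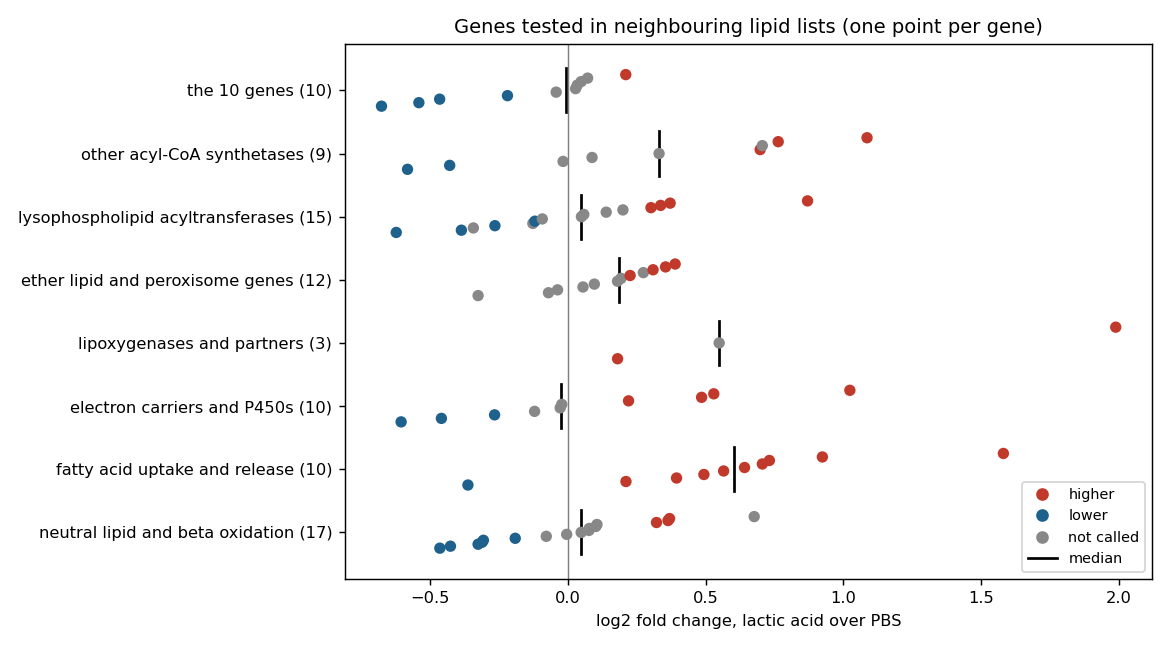
Log2 fold change (lactic acid over PBS) of each tested gene among the 10 genes and in the 7 lists, with the number tested in brackets, colours for the call at an adjusted p below 0.05 and black ticks at medians. Fatty acid uptake and release lies mostly to the right (median 0.60), while the 10 genes have a median of -0.0071 with 4 genes called on the left.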

How the data were processed

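Libraries were made from polyadenylated RNA with a NEBNext Ultra kit and read in pairs of 150 bases, per the labels' protocols. The authors deposited raw read counts per gene and, in a second table, FPKM of the same genes. The submitters' processing notes name, without roles, featureCounts (1.5.0-p3), HISAT2 (2.0.5), DESeq2 (1.16.1), StringTie (1.3.3b), CASAVA and the builds GRCm38.p6 and mm10. The treatment of strand, multi-mapping reads and overlaps is not given in the sources used here. The deposited FPKM carry a scaling between libraries, which cancels in shares within a library.

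The counts were fitted with edgeR 4.0.16 in R 4.3.3 (filterByExpr with minimum count 10 and minimum total 15, TMM, robust quasi-likelihood, group as the only term), two-sided, with Benjamini-Hochberg adjustment over 13922 genes and a threshold of 0.05. The SE is the log2 fold change divided by the square root of F, and 95% intervals use the model's degrees of freedom. CPM use TMM-scaled library sizes. The 10 genes, the lists and the rule for named genes (the 10 genes and, of each list, the 3 with the smallest p) were chosen with earlier results of these data known. Alternatives used limma 3.58.1, DESeq2 1.42.0, other scalings and filters, the replicate number as a block, the deposited FPKM and each library left out. Gene positions are those of the table, exon overlaps come from GENCODE M21 (the 10 genes have the same positions there), and copies were searched with blastn 2.17.0 (at least 98% identity over 300 bases). Promoter sequences are RefSeq's on GRCm38.p6, and protein sequences were not used here. The fit was tested on simulated data.

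Replicates of a group differed by more than counting noise, with a chi-square per gene of 2.85 (lactic acid) and 2.37 (PBS).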

Additional observations from a re-analysis of the deposited data

How the results depend on the processing

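The calls of Lpcat3, Acsl3, Acsl5 (lower) and Cyb5r1 (higher) kept their direction and their side of the threshold in all 14 alternatives, with log2 fold changes of -0.77 to -0.60, -0.51 to -0.43, -0.57 to -0.52 and 0.16 to 0.25. Acsl1, Acsl4, Agps, Far1 and Por were not called in any of them. The value of Far1 ranged from -0.02 to 0.08, so it has no settled direction. The count of lowered genes among the 10 was 3 to 4 with 1 library left out, and 3 in DESeq2, through Tmem189. DESeq2 called 2251 genes higher and 2494 lower over all genes, against 3445 and 3377 in edgeR. With a library left out, 2853 to 3022 genes were called higher and 2953 to 3142 lower, and the lone library of a group was then assumed to vary like the other group. With the replicate block 3459 genes were higher and 3393 lower, with 1 and 4 of the 10 genes, and the block ended no call of the 10 genes. Deviations of same-numbered libraries correlated at 0.00383 across genes, so no deviation shared by number was seen. Whether same-numbered libraries were prepared side by side cannot be told from this value. Depth limits the genes with few reads, such as Alox5ap, more than the 10 genes, which had 452 to 2616 counts in each library.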

Other observations

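Of 17 genes tested that use acyl-CoA in neutral lipid and beta oxidation, 3 were higher and 6 lower, with a median log2 fold change of 0.05. Cpt1a, which brings long chains into mitochondria, fell to 85.1 ± 4.08 CPM with lactic acid, against 114 ± 2.51 CPM with PBS (log2 fold change -0.43, SE 0.05, edgeR adjusted p = 1.16e-11). Hadha, a subunit of the mitochondrial trifunctional protein, fell to 104 ± 2.15 CPM with lactic acid, against 143 ± 5.42 CPM with PBS (log2 fold change -0.46, SE 0.04, edgeR adjusted p = 3.50e-14). Acadl, the long-chain acyl-CoA dehydrogenase, rose to 169 ± 5.85 CPM with lactic acid, against 132 ± 1.17 CPM with PBS (log2 fold change 0.36, SE 0.04, edgeR adjusted p = 1.44e-11). Plin2, which coats lipid droplets and was named after its values were seen, had 123 CPM in lactic acid libraries, against 119 CPM in PBS libraries, and did not pass (edgeR adjusted p = 0.358). Plin3, another coat protein also named after its values were seen, was lower, at 86.3 CPM in lactic acid libraries, against 98.5 CPM in PBS libraries (log2 fold change -0.19, edgeR adjusted p = 0.00134).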
